A study of Mus musculus with 10 samples.

Results

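The epithelial and mesenchymal state genes described here are 10 genes, Cdh1, Cdh2, Epcam, Krt8, Krt18, Vim, Snai1, Snai2, Zeb1 and Zeb2, chosen by name from the 34745 genes of the deposited expression table. All 10 were found, each under 1 identifier. They were measured by RNA sequencing in 10 libraries of Hepa1-6, a mouse hepatoma line, with the genotype given as WT in both groups. In the untreated group (n = 5) the cells received no treatment. In the co-culture group (n = 5), labelled as an attack by cytotoxic T cells, they were kept for 48 h with CD8+ T cells from the spleens of male C57/BL6 mice 6 to 8 weeks old, which had been stimulated through CD3 and CD28 (antibodies diluted 1 in 2000) over the preceding 5 days. All libraries come from a single cell line, and no source used here says that those of a group came from separate cultures, so the p-values given here cover library-to-library spread, which may be technical. Wells were rinsed with PBS before RNA extraction, and RNA left from T cells or from other spleen cells was sequenced with that of the hepatoma cells.

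Epithelial cells are held together by E-cadherin, the product of Cdh1, and carry keratin filaments, whereas mesenchymal cells use N-cadherin, the product of Cdh2, and vimentin filaments. The shift between these states, the epithelial to mesenchymal transition, is driven by the zinc finger repressors Snai1, Snai2, Zeb1 and Zeb2, which bind E-box elements in promoters such as that of Cdh1. In liver, Krt8 and Krt18 form the filaments of hepatocytes, and hepatoma cells are known to vary widely between both states.

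The libraries held 12922263 to 17100662 counts. Totals did not differ beyond the spread (two-sided exact permutation test, p = 0.468, n = 5 per group). Hepatocyte genes were mostly absent from these cultures. Of 19 hepatoma markers, 14 had group means below 1 CPM (counts scaled to library size, with TMM factors applied here) in both groups. Alb, the albumin gene, had 0 counts in untreated and 4 in co-culture libraries, and the hepatocyte regulator Hnf4a had 0 and 1. Afp, the alpha-fetoprotein gene, was present at 17.2 to 22.4 CPM in untreated and 14.7 to 16.9 CPM in co-culture libraries. Of the 5 hepatoma markers tested, Afp and Rbp4 fell, by 0.36 and 1.05 on the log2 scale, Apoe rose by 0.74, Trf rose from 2 to 274 summed counts and Apoa2 did not pass. The cells are called hepatoma cells here by their label. Markers of macrophages were higher after co-culture. Their summed level over 21 genes ran from 64.2 to 69.7 CPM in untreated and from 102 to 122 CPM in co-culture libraries (exact permutation p = 0.00794, the smallest these group sizes allow, adjusted p = 0.0159 over 2 library measures, n = 5). Of these genes 10 were tested, 7 were called higher and none lower, and none of the 21 was at 0 in every library. The log2 fold changes of the tested markers ran from -0.04 to 7.09, with a median of 1.89. As untreated libraries already held 64.2 to 69.7 CPM, the sum does not measure macrophage RNA alone. All 16 T cell markers had group means below 1 CPM, Cd28 reaching 1.30 CPM in the highest library, and Cd3e, Cd3d, Cd8a and Cd2 had 0 counts in every library.

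Both filament systems were abundant in the same cultures, while E-cadherin message was almost undetectable. Levels are compared between genes in FPKM, which divides by a fixed length per gene as well as by depth. The implied lengths ran from 1400 bases for Krt18 to 34118 for Zeb2, with 1805 for Krt8, 7809 for Vim and 16474 for Zeb1. The order and percentages given next rest on these lengths, which were not checked against the transcripts present. In untreated libraries Krt8 stood at 610 ± 44.8 FPKM, Krt18 at 351 ± 21.1 FPKM and Vim at 237 ± 8.36 FPKM (SD, n = 5). The 3 filament genes lay above 99.4%, 99.0% and 98.6% of all tested genes on their mean FPKM. Snai1 followed at 12.4 ± 1.13 FPKM, then Cdh2 at 4.69 ± 0.321, Snai2 at 2.41 ± 0.478, Zeb1 at 1.80 ± 0.282, Zeb2 at 0.928 ± 0.106, Epcam at 0.470 ± 0.186 and Cdh1 at 0.0257 ± 0.0305 FPKM. In this order the ranges of neighbouring genes were separate except for Snai2 and Zeb1. After co-culture the order was the same except that Zeb1, at 1.86 FPKM, and Snai2, at 1.84 FPKM, changed places with overlapping ranges. In CPM, without a length, the order differed. In untreated libraries Vim at 1800 to 1952 CPM lay above Krt8 at 994 to 1216 CPM. Zeb1 at 23.9 to 35.7 and Zeb2 at 27.6 to 35.6 CPM lay above Snai1 at 17.9 to 22.7 and Snai2 at 3.77 to 5.98 CPM. On mean CPM the 3 filament genes were still the highest and Cdh1 the lowest.

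**Figure D1:**
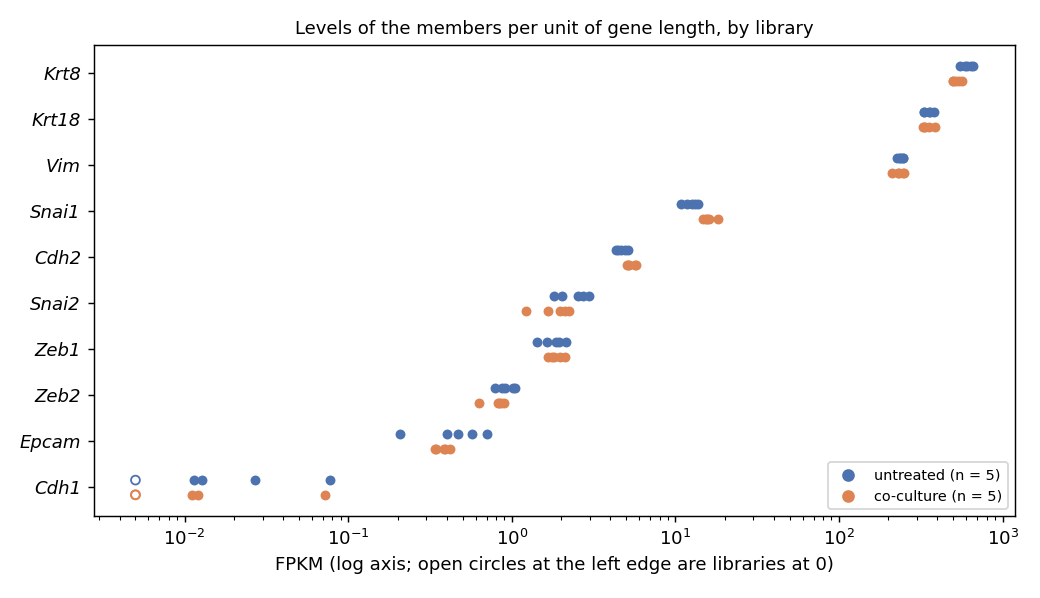
Levels of the 10 genes in FPKM on a log axis, 1 point per library, untreated in blue and co-culture in orange, with libraries at 0 drawn as open circles at the left edge (the co-culture circle of Cdh1 stands for 2 libraries). Krt8, Krt18 and Vim lie between 209.6 and 662 FPKM in all 10 libraries, and Cdh1 lies at or below 0.0776 FPKM in all 10.

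Across the comparison of co-culture with untreated cells, 1 gene of the set rose, 1 fell and 7 did not pass, with the tenth, Cdh1, too low to test. Snai1 rose by 0.33 and Krt8 fell by 0.25 on the log2 scale. Among all 12666 genes tested, 17.4% were called higher and 16.1% lower (edgeR quasi-likelihood test, adjusted p below 0.05), 33.5% in all. The 2 calls among the 9 tested members come to 22.2%. The median log2 fold change of the 9 tested members was -0.05, beside 0.01 over all genes tested. All 9 had changes under 2-fold, from -0.42 to 0.33 on the log2 scale.

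**Figure D2:**
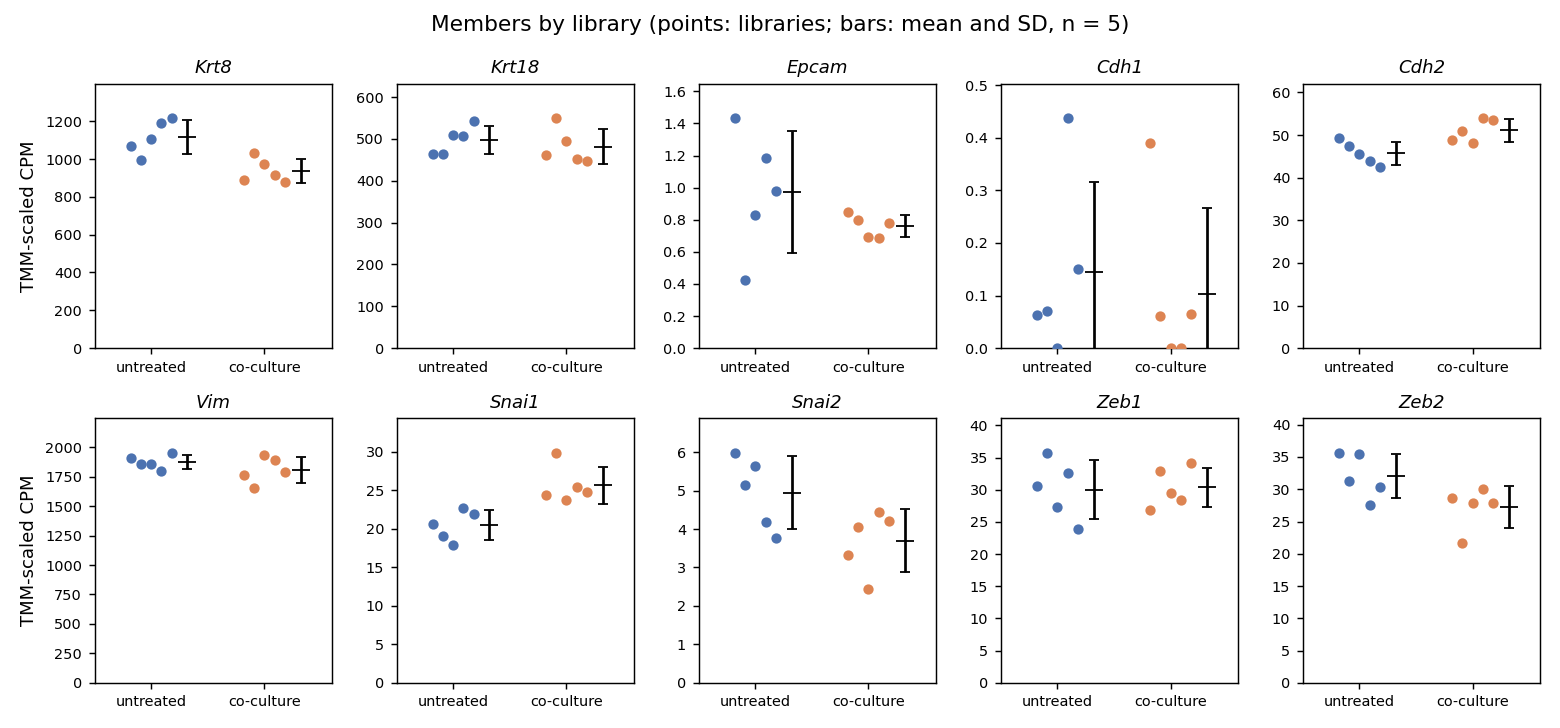
TMM-scaled CPM of the 10 genes, 1 panel per gene with an axis from 0, 1 point per library in replicate order and the mean with SD (n = 5) beside each group, the SD bars of Cdh1 being cut off at 0. The 5 co-culture points of Snai1 lie above all untreated points, 4 of 5 for Krt8 lie below them, and the co-culture points of Zeb1, Epcam and Cdh1 lie within the untreated range.

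The promoters of the 2 called genes and of Krt18, the filament partner of Krt8, are shown because Snail and Zeb proteins bind E-boxes of the form CAGGTG, or CACCTG on the other strand. Both spellings were searched on 300 bases, 250 before and 50 after the annotated start, taken from RefSeq on GRCm38.p6. This was done for the 6 members that matched the table outside the chromosome of Cdh2 and Zeb1. The promoters of Cdh1, Snai2, Cdh2 and Zeb1 were not searched. Capitals mark each match, and the sequences are written 5′ to 3′ on the strand of the gene. The Snai1 window is chr2:167537945-167538244 on the plus strand, that of Krt8 chr15:102004293-102004592 on the minus strand and that of Krt18 chr15:102027966-102028265 on the plus strand.
Snai1: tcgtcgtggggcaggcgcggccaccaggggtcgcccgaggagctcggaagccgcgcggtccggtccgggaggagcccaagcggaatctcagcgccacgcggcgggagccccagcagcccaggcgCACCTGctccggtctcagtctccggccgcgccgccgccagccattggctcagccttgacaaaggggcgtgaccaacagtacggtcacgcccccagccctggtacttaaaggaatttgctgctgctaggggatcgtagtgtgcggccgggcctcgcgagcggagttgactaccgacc
Krt8: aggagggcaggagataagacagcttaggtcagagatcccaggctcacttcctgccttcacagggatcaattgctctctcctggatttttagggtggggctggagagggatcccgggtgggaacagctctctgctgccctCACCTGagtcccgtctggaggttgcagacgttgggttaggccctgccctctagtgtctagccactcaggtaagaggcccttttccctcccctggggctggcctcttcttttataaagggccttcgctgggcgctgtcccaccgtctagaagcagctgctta
Krt18: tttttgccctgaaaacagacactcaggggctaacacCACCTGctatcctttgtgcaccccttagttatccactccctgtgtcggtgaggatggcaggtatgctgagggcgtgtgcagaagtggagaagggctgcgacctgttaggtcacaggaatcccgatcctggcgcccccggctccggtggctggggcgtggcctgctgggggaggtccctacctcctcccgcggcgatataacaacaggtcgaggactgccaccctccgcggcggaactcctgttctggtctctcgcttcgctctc
Each of these 3 windows held 1 match, 126, 111 and 214 bases before the start. Epcam held 2, and Vim and the 4 windows of Zeb2 held none. Among all 32851 promoter windows 20.2% held at least 1 match and 2.88% held 2 or more. A match is a run of letters and was not measured as a binding site.

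Among the repressors, Snai1 rose. Snai1 (chromosome 2, 167538195 to 167542814 in mm10, plus strand, protein-coding) encodes the Snail repressor, a zinc finger protein that silences Cdh1. Its level was 20.6, 19.1, 17.9, 22.7 and 21.8 CPM in the untreated libraries and 24.4, 29.8, 23.7, 25.4 and 24.7 CPM after co-culture. The groups did not overlap, the closest libraries being at 23.7 CPM after co-culture and 22.7 CPM without it, a separation that 12.6% of all tested genes showed in this direction. The mean went from 20.4 ± 1.95 to 25.6 ± 2.44 CPM (n = 5), which is 0.33 on the log2 scale (SE 0.0861, edgeR adjusted p = 0.0100) or 1.26-fold. Without co-culture replicate 2, the highest library, the log2 fold change was 0.26 and the call was kept (edgeR adjusted p = 0.0249).

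Snai2 (chromosome 16, 14705852 to 14709395, plus strand), which encodes Slug, a close relative of Snail, pointed the other way without passing the test. It was at 5.98, 5.15, 5.64, 4.19 and 3.77 CPM in untreated and 3.32, 4.05, 2.45, 4.45 and 4.22 CPM in co-culture libraries. The groups overlapped, and 2 co-culture libraries lay below all untreated ones. The log2 fold change was -0.42 (SE 0.177, edgeR adjusted p = 0.0872), and it passed without untreated replicate 5, the lowest untreated library (edgeR adjusted p = 0.0458). In FPKM, Snai1 exceeded Snai2 in every library, by 3.98 to 7.27 times in untreated and 7.15 to 12.1 times in co-culture libraries, ranges that met at their edges.

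The ZEB repressors did not pass. Zeb1 (chromosome 18, 5591860 to 5775467, plus strand) had 30.5, 35.7, 27.3, 32.7 and 23.9 CPM in untreated and 26.9, 32.8, 29.5, 28.4 and 34.1 CPM in co-culture libraries. All co-culture libraries lay within the untreated range. The log2 fold change was 0.02 (SE 0.106, edgeR adjusted p = 0.928), with an approximate 95% interval of -0.19 to 0.22, and its sign turned in 4 of the 10 fits without a library. Zeb2 (chromosome 2, 44983632 to 45117395, minus strand) had 35.6, 31.2, 35.4, 27.6 and 30.3 CPM and then 28.7, 21.7, 27.8, 30.1 and 27.8 CPM. Its groups overlapped as well, with co-culture replicate 2 the lowest of all 10 libraries. Its log2 fold change was -0.24 (SE 0.0981, edgeR adjusted p = 0.0807), and it passed without untreated replicate 4 (edgeR adjusted p = 0.0406). The antisense gene Zeb2os overlaps Zeb2 and had 152 counts in untreated and 125 in co-culture libraries, against 2455 and 2025 for Zeb2. Whether counting used strand is not given in the sources used here, so reads of both cannot be told apart. Macrophages and T cells are known to express Zeb2 and Vim, and the macrophage marker sum rose by 46.4 CPM after co-culture. Neither gene was called in either direction, and the share of their counts that came from other cells was not tested.

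Among the cadherins, N-cadherin message prevailed over E-cadherin message in every library. Cdh1 (chromosome 8, 106603351 to 106670246, plus strand) had 1, 1, 0, 7 and 2 counts in untreated and 6, 1, 0, 0 and 1 counts in co-culture libraries. With 3 counts as the limit that a count of 0 allows, equal to 0.175 to 0.232 CPM in a library, 8 of the 10 libraries were under this limit and 2 were above it. The summed counts were 11 and 8, a ratio of 0.760 relative to the library totals with an exact 95% binomial interval of 0.265 to 2.07 that covers counting error only, so no difference was detectable at this depth. Cdh2 (chromosome 18, 16588877 to 16809246, minus strand) had 49.3, 47.4, 45.5, 43.9 and 42.6 CPM in untreated and 48.8, 50.9, 48.2, 54.0 and 53.6 CPM in co-culture libraries. 3 of the 5 co-culture libraries lay above all untreated ones. Its log2 fold change of 0.16 (SE 0.0601) missed the threshold (edgeR adjusted p = 0.0569). It passed without untreated replicate 1, the highest untreated library (edgeR adjusted p = 0.0408), and with limma on log2(FPKM + 1) (adjusted p = 0.0451) or log2(FPKM + 0.1) (adjusted p = 0.0422).

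Epcam (chromosome 17, 87635979 to 87651106, plus strand), the epithelial cell adhesion molecule of hepatic progenitors and carcinomas, was close to the lower limit of what could be tested. It had 23, 6, 14, 19 and 13 counts in untreated and 13, 13, 9, 10 and 12 counts in co-culture libraries. The untreated libraries spanned the whole range of the co-culture libraries. The log2 fold change was -0.36 (SE 0.286, edgeR adjusted p = 0.371), with an approximate 95% interval of -0.92 to 0.20. It was -0.18 without untreated replicate 1 and -0.54 without untreated replicate 2, and passed in neither fit (edgeR adjusted p = 0.685 and 0.107). Untreated libraries varied by 39.2% around their mean and co-culture libraries by 9.20% (coefficients of variation, n = 5).

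Among the filament genes, Krt8 fell while Krt18 and Vim did not pass. Krt8 (chromosome 15, 101996711 to 102004342, minus strand) encodes the type II keratin of simple epithelia. It was at 1070, 994, 1108, 1192 and 1216 CPM in untreated and 890, 1030, 974, 916 and 881 CPM in co-culture libraries. 4 of the 5 co-culture libraries lay below all untreated ones, and replicate 2 of the co-culture overlapped with them. The mean went from 1116 ± 90.5 to 938 ± 63.1 CPM (n = 5), or -0.25 on the log2 scale (SE 0.0629, edgeR adjusted p = 0.00790). Krt18 (chromosome 15, 102028216 to 102032026, plus strand) encodes the type I keratin that pairs with the product of Krt8, and the 2 genes lie 23873 bases apart. It was at 463, 464, 509, 507 and 543 CPM and after co-culture at 462, 550, 496, 453 and 447 CPM. After co-culture 3 libraries lay just below all untreated ones and replicate 2 lay above them all. The log2 fold change was -0.05 (SE 0.0645, edgeR adjusted p = 0.626), with an approximate 95% interval of -0.17 to 0.08.

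The 2 keratins differed in their balance between the groups. The ratio of Krt8 to Krt18 in FPKM was 1.79, 1.66, 1.69, 1.82 and 1.74 in untreated and 1.49, 1.45, 1.52, 1.57 and 1.53 in co-culture libraries. The groups did not overlap, with means of 1.74 ± 0.0684 and 1.51 ± 0.0428 (SD, n = 5). Krt19, another type I keratin, which marks bile duct cells and hepatic progenitors and also pairs with Krt8, fell by 0.81 on the log2 scale (SE 0.0573, edgeR adjusted p = 3.51e-07), its mean going from 259 ± 17.4 to 148 ± 9.09 CPM (SD, n = 5). In FPKM, Krt19 stood at 0.293 to 0.332 of Krt18 in untreated and at 0.169 to 0.196 in co-culture libraries. Summed over 4 type II and 6 type I keratin genes, the ratio of type II to type I was 1.33 ± 0.0583 in untreated and 1.29 ± 0.0245 in co-culture libraries (SD, n = 5), with overlapping ranges of 1.28 to 1.42 and 1.25 to 1.32. The ratios with Krt19, with summed keratins and of Snai1 to Snai2 were chosen after values were seen, and no ratio carries a test.

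**Figure D3:**
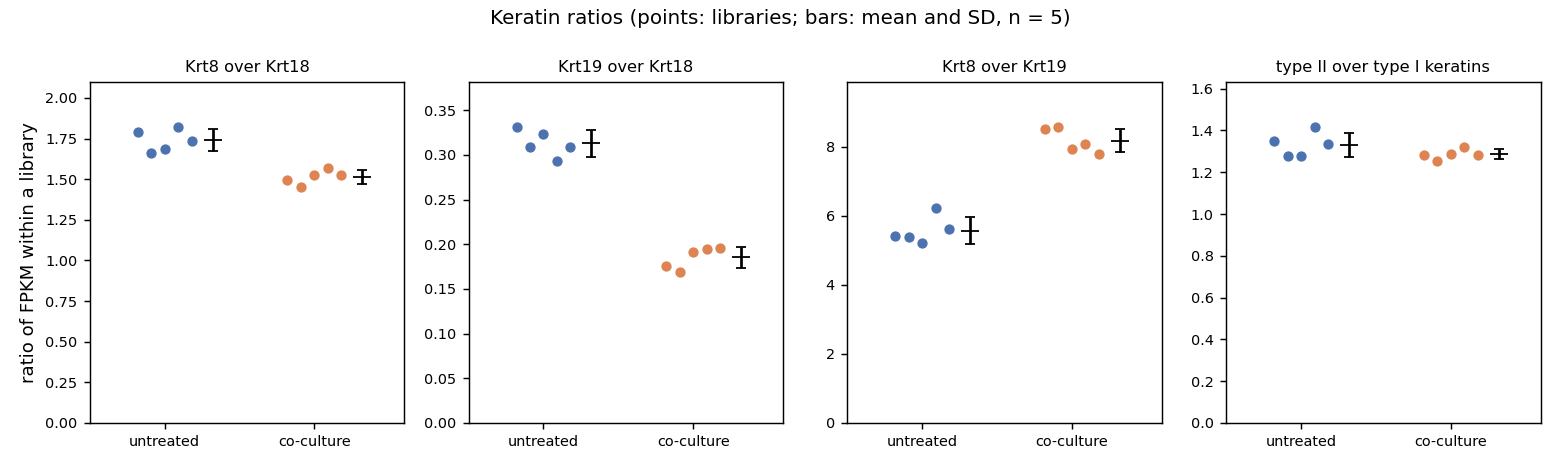
Ratios of keratin FPKM within each library, axes from 0, 1 point per library with mean and SD (n = 5). Krt8 over Krt18 and Krt19 over Krt18 are lower in every co-culture library than in any untreated library. Krt8 over Krt19 is higher (7.80 to 8.58 against 5.22 to 6.23). The ratio of 4 summed type II to 6 summed type I keratin genes overlaps between the groups.

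Vim (chromosome 2, 13573927 to 13582826, plus strand) encodes vimentin, the intermediate filament of mesenchymal cells and leukocytes. It was at 1911, 1858, 1860, 1800 and 1952 CPM in untreated and 1765, 1658, 1934, 1894 and 1788 CPM in co-culture libraries. 3 of the 5 co-culture libraries lay below all untreated ones and the other 2 lay among them. The log2 fold change was -0.05 (SE 0.0486, edgeR adjusted p = 0.431), with an approximate 95% interval of -0.15 to 0.04, the narrowest of the 9 tested genes. Vim reached 0.637 to 0.739 of the FPKM of Krt18 in untreated and 0.541 to 0.749 in co-culture libraries, ranges that overlapped. This ratio rests on implied lengths of 7809 bases for Vim and 1400 for Krt18. In CPM, without a length, Vim at 1658 to 1952 lay above Krt18 at 447 to 550 over all libraries.

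**Figure D4:**
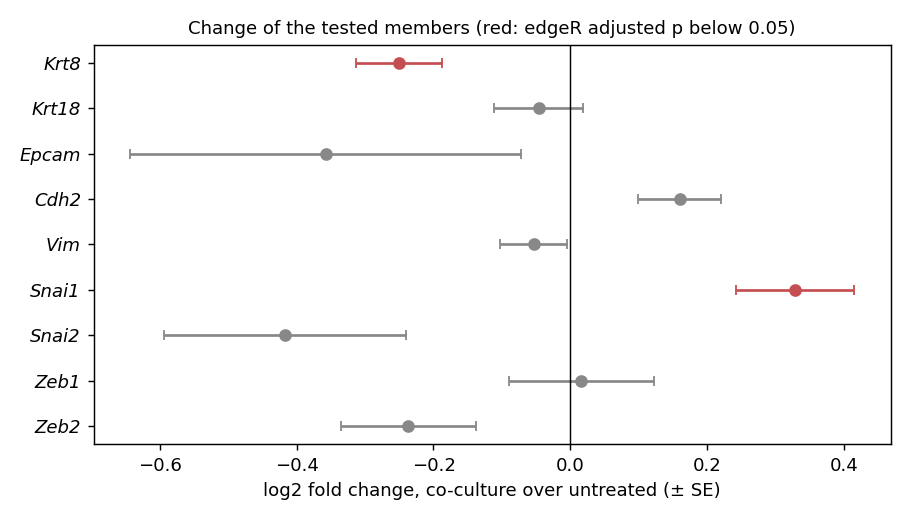
Log2 fold change of co-culture over untreated with its SE for the 9 tested genes, red where the edgeR adjusted p was below 0.05. Krt8 at -0.25 and Snai1 at 0.33 are red, and the widest errors are those of Epcam (0.286) and Snai2 (0.177).

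Genes around these members moved in both directions. In 8 further lists of 223 genes, 166 could be tested, and 42 were called higher and 25 lower. With limma on log2(FPKM + 1), which has no TMM scaling, the split was 44 to 16, and over all genes it moved from 2204 and 2044 to 2653 and 1746. In the main test, 33.5% of all genes tested were called, 17.4% higher and 16.1% lower. The share was 66.7% for keratin and filament partner genes, 62.9% for mesenchymal effectors and 15.4% for epithelial state regulators. The other lists lay at 26.7% to 41.4%, and no list was tested as a set. Of 25 tested cell junction genes, 5 rose and 5 fell, with a median log2 fold change of 0.00. F11r, a tight junction adhesion molecule, fell from 84.1 ± 4.48 to 69.6 ± 1.73 CPM, and Pvrl1, the older symbol of nectin-1, fell by 0.31 on the log2 scale, while Pkp4, which binds junctional cadherins, rose by 0.27. The cadherin partners Ctnna1 and Ctnnd1 were at 0.02 and 0.02, and Ctnnb1 and Jup fell by 0.16 and 0.17. Cldn7, a claudin that binds Epcam, had 0 counts in every library. Of 9 tested keratin and filament partner genes Krt19 fell and 5 rose, with a median of 0.22. These 5 were Plec, the linker of filaments to junctions, from 1492 ± 130 to 1733 ± 77.0 CPM (SD, n = 5), the filament gene Nes and the nuclear lamin genes Lmna, Lmnb1 and Lmnb2, of which Lmnb1 had the greatest change (0.67 on the log2 scale).

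Of 35 tested mesenchymal effector genes, 16 rose and 6 fell, with a median of 0.13. Tnc, the matrix protein tenascin-C, rose from 105 ± 3.46 to 178 ± 6.87 CPM (SD, n = 5). Col1a2, Itgb1 and Lox were the 3 of this list that rose at least 2-fold, all from low counts. Col1a2 went from 41 to 244 summed counts, Itgb1 from 7 to 68 and Lox from 8 to 81. These 3 rose along with the macrophage markers, and the cells they came from were not tested. Itgb1, an integrin subunit expressed by most cell types, was near 0 in untreated libraries, and whether counting missed its reads was not tested. Pdgfrb fell by 0.73 on the log2 scale. Of the abundant genes of this list, S100a4 rose by 0.83 (edgeR adjusted p = 4.61e-05). S100a6 and Col3a1 fell by 0.49 and 0.18 (edgeR adjusted p = 0.00801 and 0.00289).

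Among 13 tested regulators of the epithelial state, the membrane protease gene St14 rose by 0.92 and the transcription factor gene Klf4 fell by 0.66 on the log2 scale. The other 11 did not pass, and the list median was -0.11. Elf3, an epithelial transcription factor gene, was at 0.30 (edgeR adjusted p = 0.0797), and passed without untreated replicate 5 (edgeR adjusted p = 0.0244) or co-culture replicate 3 (edgeR adjusted p = 0.0266). Esrp1, Ovol2 and Ap1m2 had 0 counts in every library. Of 15 other transcription factors of the transition, Tcf3 rose by 0.19 on the log2 scale, and Sox9, Hmga2 and Twist2 fell by 0.69, 0.30 and 0.19, with a list median of -0.06. Of 25 cofactors and turnover genes of Snail and Zeb proteins, 5 rose and 2 fell, with a median of 0.05. These included Ajuba, a LIM protein that Snail recruits, from 33.0 ± 2.30 to 52.1 ± 3.82 CPM, and the histone methyltransferase gene Ezh2 and the chromatin remodeller gene Smarca4, which rose by 0.54 and 0.26. Gsk3b, the kinase that marks Snail protein for degradation, fell by 0.17.

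Of 29 tested ligands and receptors known to induce the transition, 7 rose and 5 fell, with a median of -0.05. Erbb2 rose by 0.39 and Fgfr1 fell by 0.32 on the log2 scale, while Tgfb1 was at -0.06 (edgeR adjusted p = 0.564). Areg, Jag2, Jag1, Met and Hbegf also rose, by 0.59, 0.57, 0.33, 0.31 and 0.27. Egfr and Notch2 fell by 0.34 and 0.16. The receptor genes Tgfbr1 and Tgfbr2 fell by 0.39 and 0.16 (edgeR adjusted p = 0.0199 and 0.0268). Tgfb2, Tgfb3 and Tgfbr3 did not pass. Tnf had 0 counts in untreated and 146 in co-culture libraries. It rose in the same comparison as the macrophage markers, and the cells it came from were not tested. Of 15 genes that process E-cadherin or Epcam, 2 rose and 2 fell, with a median of -0.02. Ncstn, a subunit of gamma-secretase, rose by 0.20, and Mmp3 and Tspan8, a tetraspanin partner of Epcam, fell by 0.41 and 0.37.

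**Figure D5:**
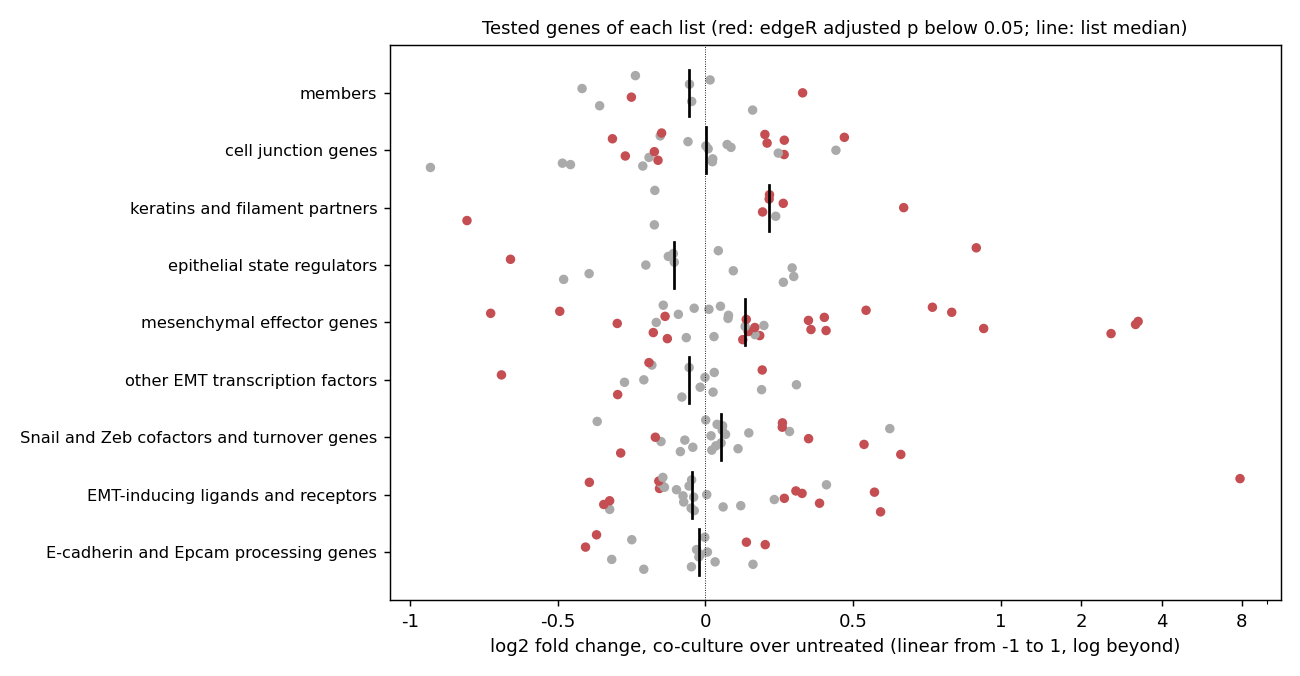
Log2 fold change of each tested gene in the 10 members and the 8 further lists, red where the edgeR adjusted p was below 0.05, with a black line at each list median; the axis is linear from -1 to 1 and logarithmic beyond. The medians lie between -0.11 and 0.22, and the gene farthest to the right is Tnf.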

How the data were processed

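Counts and FPKM of 34745 genes in 10 libraries were read from the deposited table. Without roles, HISAT2 2.1.0, RSEM 1.2.8, Bowtie2 2.2.5 and mm10 are listed per the submitters' processing notes. The annotation is not named and the strand setting not given in the sources used here. As deposited, the counts are whole numbers, not normalized. The deposited FPKM equal those counts divided by a fixed length per gene and the library total, with implied lengths differing by at most 0.00104% over 9379 genes. No value column was left unused. Libraries were made from 1.3 ug of total RNA, per the labels' protocols.

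The main test was edgeR 4.0.16 in R 4.3.3 (filterByExpr, TMM scaling, two-sided quasi-likelihood F test without a block, Benjamini-Hochberg adjustment over 12666 genes, called below 0.05). It was tested on simulated data. A standard error is the fitted log2 change divided by the square root of F. Exact permutation tests used scipy 1.17.1. Alternatives were 2 other scalings, 2 other filters, DESeq2 1.42.0, limma 3.58.1 on log2 FPKM with a pseudocount of 1 or 0.1, a replicate block, and leaving out each of 10 libraries. No pair of libraries within a group agreed within counting noise (chi-square per degree of freedom 7.03 to 16.0 over 20 pairs), so none was treated as a library deposited again. This does not show separate cultures.

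The members and lists were chosen with earlier results of these data known. Beyond the members, the rule named in each list the 3 tested genes lowest in p and any list gene called at 2-fold or more. Other genes, such as Alb, Apoe, Apoa2, Hnf4a, Zeb2os, Ctnna1, Ctnnd1, Ctnnb1, Jup, Cldn7, Twist2, Gsk3b and Tgfb1, were chosen after their values were seen. So were S100a4, S100a6, Col3a1, Tgfb2, Tgfb3, Tgfbr1, Tgfbr2 and Tgfbr3. The text leaves out a few genes that the rule named. Nectin2 and Eppk1 were not matched to the table and were not used here. The macrophage marker Itgam stood under 2 identifiers and was left out as well. The fibroblast and stellate list (9 of 15 tested, 1 higher and 3 lower) and the endothelial list (3 of 10 tested, 1 higher and none lower) were also counted. Reads shared with near-identical copies such as keratin pseudogenes could have been split at counting.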

Additional observations from a re-analysis of the deposited data

Results flagged for a closer look

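A library that stood apart from the other 4 of its group, by a gap that is a large part of the group's range, was found in 9 of 120 groups of values examined, where chance alone flags about 1 in 20. Among the members, co-culture replicate 2 was the highest for Snai1, at 29.8 CPM against 23.7 to 25.4 CPM in the other 4 libraries, and the lowest for Zeb2, at 21.7 CPM against 27.8 to 30.1 CPM. Cdh1 was at 0.390 CPM in co-culture replicate 1 and at 0 to 0.0649 CPM in the other 4 libraries, a difference of a few counts. Co-culture replicate 2 also stood apart for the macrophage gene Fcer1g, at 2.52 CPM against 1.56 to 1.61 CPM. In co-culture replicate 5, Col1a2 was low at 2.59 CPM against 3.36 to 3.53 CPM, and the endothelial gene Vwf was low at 3.11 CPM against 4.94 to 5.52 CPM. In untreated replicate 4, Sox9 was high at 21.1 CPM against 17.5 to 18.1 CPM, and Trf was at 0.125 CPM where the other 4 untreated libraries had 0. Erbb2 was high in untreated replicate 5, at 31.7 CPM against 27.7 to 28.5 CPM.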

How the results depend on the processing

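The fall of Krt8 and the rise of Snai1 were called in all 8 other settings and in all 10 fits that left out a library, with log2 fold changes of -0.29 to -0.22 and 0.26 to 0.37 and adjusted p up to 0.0361 and 0.0329. Members called higher numbered 2 with limma on log2 FPKM (either pseudocount), where Cdh2 passed, and 1 to 2 without a library. Members called lower numbered 1 to 2 without a library. Zeb1, which was never called, ranged from -0.060 to 0.084 without a library and was below 0 in 4 of these 10 fits. Of the 166 other list genes, 25 were called lower, against 16 with limma on log2 FPKM (either pseudocount) and 15 with the replicate block. No sign that the replicate numbers pair the libraries was seen, and 5 pairs are too few to exclude it. Deviations of same-numbered libraries from their group means correlated at -0.10 to 0.05, beside -0.16 to 0.21 for other pairs, and 1 of 5 untreated libraries correlated best with its own number. With the block, Krt8 and Snai1 kept their calls (edgeR adjusted p = 0.0361 and 0.0275) and all genes called numbered 1762 higher and 1625 lower. The cause of these differences was not tested. The change in the Krt8 to Krt18 ratio, recomputed without each library as a choice made after seeing the data, stayed between -0.22 and -0.18 on the log2 scale. Depth limits Cdh1, with 0 to 7 counts per library, and Epcam, with 6 to 23.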
